A study of Mus musculus with 6 samples.

Results

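The mRNAs described here encode 10 proteins that bind other mRNAs or lengthen their poly(A) tails: the poly(A)-binding proteins Pabpc1 and Pabpc4, the poly(A) polymerases Papola and Papolg, the cytoplasmic polyadenylation element binding proteins Cpeb2 and Cpeb4, the La-related proteins Larp1 and Larp4, and the AU-rich element binding proteins Elavl1 and Khsrp. They were chosen by gene symbol and function, with no threshold on their values, and with earlier results of these data known. All 10 were found among the 18193 genes that had a probe set naming a single gene on the array, and together they had 30 of the 45037 probe sets. Where a gene had several sets, the brightest on average stands for it, and the rest serve as a check.

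Fetal hepatocytes were prepared from E16.5 mouse embryos and cultured with oncostatin M and dexamethasone. Total RNA was taken at 0 h, or after 6 or 12 h of actinomycin D (ActD), which blocks transcription, so that the mRNA left over time reflects its decay. Control cells, labelled wild type, came from embryos that, per the methods, carried floxed Cnot3 without Cre, or Cre with at most 1 floxed allele. Cnot3KO cells carried floxed Cnot3 alleles and Cre recombinase driven by the albumin promoter, which is active in hepatocytes and their precursors and not in other liver cells. Each of the 6 combinations of genotype and time was measured on 1 Affymetrix Mouse Genome 430 2.0 array. How many embryos contributed to an array is not given in the sources used here, and the study describes Cnot3 as only partly lost at this stage in vivo and well depleted once the culture was over. The comparison asks how the level and the loss of these mRNAs differ when Cnot3 is deleted.

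Cnot3 is a subunit of the Ccr4-Not complex, the main cytoplasmic deadenylase, which shortens poly(A) tails as the usual first step of mRNA decay. The poly(A) tail is made in the nucleus by poly(A) polymerases and is then covered by poly(A)-binding proteins, which link it to the translation machinery and are displaced as the tail is removed. Other proteins bound to an mRNA shift the balance. CPEB proteins tie an mRNA to tail lengthening or shortening, and LARP proteins protect tails or particular classes of mRNA. Elavl1 and Khsrp bind AU-rich elements with opposite known effects, stabilisation by Elavl1 and decay by Khsrp.

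The median intensity was between 69.7 and 72.4 on the 6 arrays and the 20th percentile between 19.7 and 22.4, so the arrays were on like scales. Intensities were normalised across arrays by the Robust Multi-array Average (RMA), so a change after ActD is relative to the rest of the array, and an equal loss of every mRNA would not show. The values have no replicate array. Between 2 probe sets of the same gene, the difference between genotypes had a standard deviation (SD) of 0.24 on the log2 scale at 0 h, 0.34 at 6 h and 0.50 at 12 h over 4117 genes, and this is the only measure of error for a single time. On its brighter probe set, Cnot3 read 296.1, 213.7 and 157.7 on the control arrays at 0, 6 and 12 h and 174.0, 173.7 and 146.2 on the Cnot3KO arrays, which is a difference of −0.77 (log2) at 0 h and of −0.11 at 12 h. The other Cnot3 probe set differed by −0.05, −0.39 and −0.38 at the 3 times, and whether either set lies in the deleted part is not given in the sources used here. All 10 hepatocyte markers listed were above the array median on all arrays, and their median genotype difference over the 3 times was −0.0056, with members on both sides: Cps1, a urea cycle enzyme, was lower in Cnot3KO cells (−1.74, limma, adjusted p = 0.0499), and Hnf4a and Krt18 read 0.52 and 0.47 (adjusted p = 0.0788 and 0.0968). Markers of other liver cells differed with genotype: the summed level of 9 macrophage markers was 11858.1 to 15100.7 in control cells and 9207.7 to 10022.1 in Cnot3KO cells (median genotype difference −0.57). Of them Vsig4 (−1.32) and Mrc1 (−1.51) passed the adjusted test (limma, adjusted p = 0.0499 and 0.04998). Macrophage markers also lay on both sides, with Cd14 (0.17) and Cd68 (0.10) higher in Cnot3KO cells and Clec4f at −0.12. The sum of 7 stellate markers was 17098.4 to 18044.5 and 8346.4 to 13448.7 (median −0.77), that of 3 megakaryocyte markers 2538.1 to 4106.5 and 1839.3 to 2218.4 (median −0.69), and that of 8 endothelial markers, of which 2 were above the array median throughout, 639.1 to 1443.7 and 448.1 to 958.8 (median −0.48). The sum of 4 cholangiocyte markers was higher in Cnot3KO cells, at 26324.3 to 29592.3 against 15247.9 to 20309.6 (median 0.23), and erythroid and leukocyte lists, each with 2 of 5 tested genes above the array median throughout, had medians of −0.26 and −0.25. In such bulk RNA, fewer cells of a type and less RNA per cell cannot be told apart, and the part of these cells in the values below was not tested.

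The 10 mRNAs showed contrasting patterns. Of Papolg, Cpeb2, Cpeb4, Larp1 and Larp4, 10.3% to 42.1% of the 0 h intensity was left at 12 h in control cells and 46.2% to 108% in Cnot3KO cells. At 12 h all 5 stood 1.77-fold to 7.86-fold higher in Cnot3KO cells. Pabpc4 was 1.86-fold lower in Cnot3KO cells at 12 h, while the bright probe sets of Papola pointed both ways (−0.59 and 0.77 on the log2 scale). On their chosen sets Pabpc1, Elavl1 and Khsrp differed by at most 1.08-fold at any time. No member passed the adjusted test of genotype over the 3 times, and 2, Cpeb4 and Larp1, passed the adjusted test of loss after ActD in both genotypes.

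**Figure D1:**
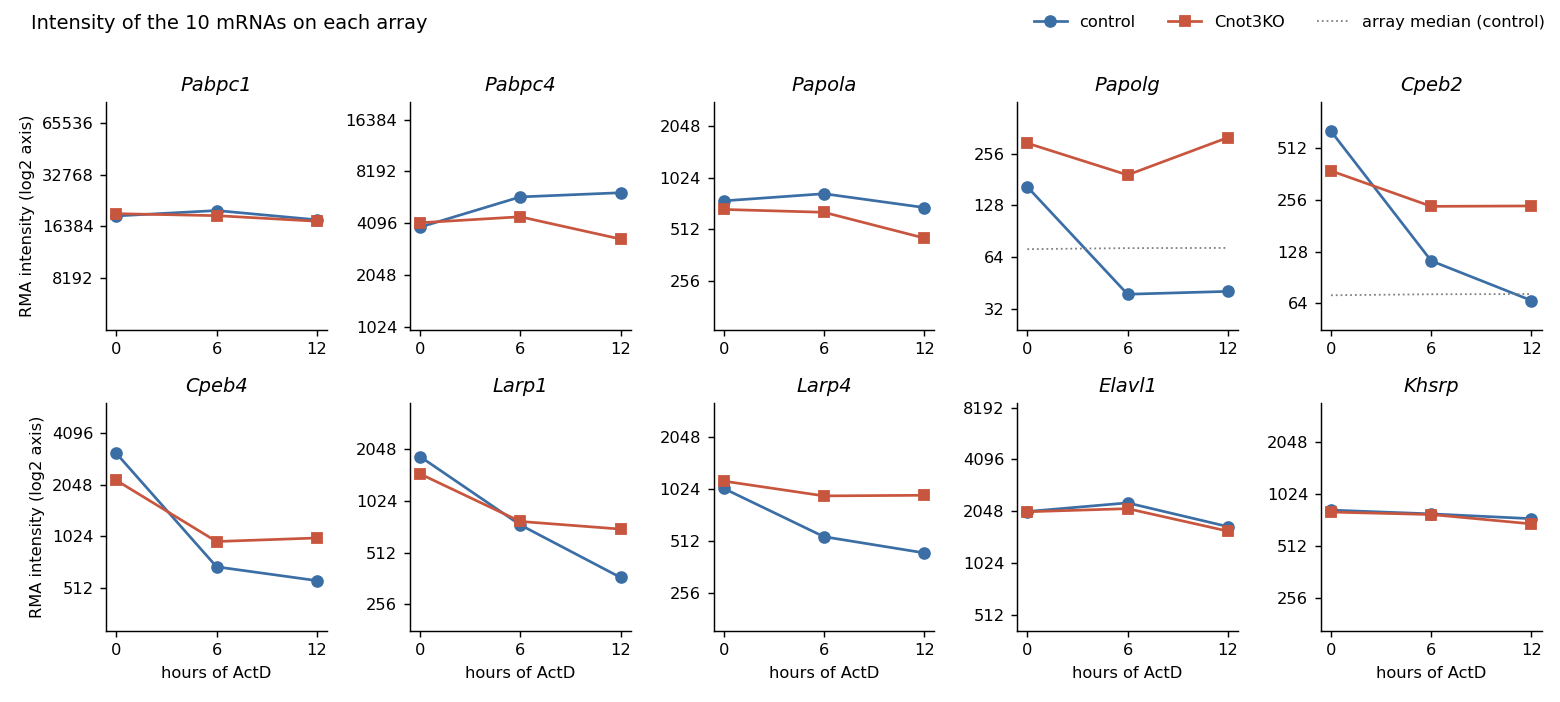
RMA intensity (log2 axis) of each of the 10 mRNAs against hours of ActD, with control arrays as blue circles and Cnot3KO arrays as red squares, 1 array a point. The dotted line is the median of the control arrays, shown where it falls within the panel. The red line ends above the blue one for Papolg, Cpeb2, Cpeb4, Larp1 and Larp4, below it for Pabpc4 and Papola, and the lines lie together for Pabpc1, Elavl1 and Khsrp.

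The promoters of the members with the least mRNA left in control cells are shown because ActD silences them, so that the level at 0 h depends on promoter output and decay and the later levels on decay. RefSeq promoters (mouse build GRCm38.p6) matched 8 of the 10 genes, and those of Pabpc1 and Cpeb2 were not matched. The 100 bases before the annotated transcription start of Papolg (chr11:23895271-23895370, minus strand), Cpeb4 (chr11:31870840-31870939, plus strand), Larp1 (chr11:58008964-58009063, plus strand) and Larp4 (chr15:99972680-99972779, plus strand) are printed 5′ to 3′, with capitals for the GC box GGGCGG, searched on both strands, so that CCGCCC is its match on the other strand:
Papolg: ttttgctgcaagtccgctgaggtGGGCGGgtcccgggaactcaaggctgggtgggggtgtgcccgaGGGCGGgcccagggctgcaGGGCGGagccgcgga
Cpeb4: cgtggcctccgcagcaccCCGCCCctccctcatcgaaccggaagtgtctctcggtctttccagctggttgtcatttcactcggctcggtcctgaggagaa
Larp1: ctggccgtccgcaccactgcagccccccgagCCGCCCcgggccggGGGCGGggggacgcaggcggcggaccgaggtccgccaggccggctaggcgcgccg
Larp4: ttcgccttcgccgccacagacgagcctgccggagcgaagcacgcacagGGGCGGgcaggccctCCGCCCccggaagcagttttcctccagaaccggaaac
Papolg held 3 GC boxes, Larp1 and Larp4 2 each, and Cpeb4 1. The same window held none in Pabpc4, Papola, Elavl1 and Khsrp. Of 32851 promoters of this length, 24.7% held at least 1 GC box. The CCAAT box (CCAAT, both strands) was found in Elavl1 alone of the 8, with 2 matches, against 18.9% of all promoters, and the TATA box (TATAAA, both strands) in none of the 8, against 5.56%. The window of Larp1 was 85% G and C, that of Papolg 73%, that of Larp4 69% and that of Cpeb4 62%. These matches describe the letters and not the binding of any factor.

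Pabpc1 is the major cytoplasmic poly(A)-binding protein. In time order, its intensity was 18850.6, 20259.3 and 17892.1 in control cells and 19431.7, 18918.4 and 17559.3 in Cnot3KO cells. The genotypes overlapped, and 94.9% of the control level and 90.4% of the Cnot3KO level was left at 12 h. Over the 3 times the genotype difference was −0.03 ± 0.14 (log2, SE, 3 arrays a genotype, 95% interval −0.37 to 0.31, limma with Benjamini-Hochberg adjustment, adjusted p = 0.895). A second and much weaker Pabpc1 probe set, still above the array median on every array, gave another picture, with differences of −0.34, 0.15 and 0.35 at the 3 times and a change over 12 h of −1.08 in control and −0.39 in Cnot3KO cells.

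Pabpc4, a close relative of Pabpc1 that also coats cytoplasmic poly(A) tails, was the 1 member with a higher intensity at 12 h than at 0 h in control cells. It read 3884.8 at 0 h, 5827.0 at 6 h and 6163.7 at 12 h in control cells, and 4121.3, 4464.9 and 3313.2 in Cnot3KO cells. The arrays were alike at 0 h, where Cnot3KO was 0.09 higher (log2), and differed by −0.38 at 6 h and −0.90 at 12 h. A control level of 159% of the starting value at 12 h thus stood against 80.4% in Cnot3KO cells. As a fitted slope, the genotypes differed in their change over 12 h by −0.98 ± 0.37 (log2, SE), with an unadjusted p of 0.0389 and an adjusted p of 0.260 (limma). The second Pabpc4 probe set, like the first of the kind whose probes can match more than 1 transcript, read alike, with −0.48 at 6 h, −1.06 at 12 h and a difference in change of −1.14. Over the 3 times the genotype difference of Pabpc4 was −0.40 ± 0.21 (adjusted p = 0.245, limma).

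Papola, the canonical nuclear poly(A) polymerase, had intensities of 750.5, 825.7 and 686.4 in control cells and of 669.0, 643.9 and 456.0 in Cnot3KO cells. Each Cnot3KO array was below the control array of its time, by −0.17, −0.36 and −0.59 on the log2 scale, and the control arrays lay above all 3 Cnot3KO arrays. The genotype difference over the 3 times was −0.37 ± 0.15 (SE) with an unadjusted p of 0.0532 and an adjusted p of 0.155 (limma). The direction depended on the probe set. Of the other 4 sets, the brightest was higher in Cnot3KO cells at all 3 times, by 0.33, 0.27 and 0.77, with a change over 12 h of −1.31 in control and −0.86 in Cnot3KO cells, while the next set read −0.31, −0.90 and −1.07. Both of these were above the array median throughout, so no single direction is given for Papola.

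Papolg, the second nuclear poly(A) polymerase, showed the widest gap between genotypes at 12 h among the chosen sets of the 10, whereas with the mean of sets it was Larp4 (1.94 against 1.45). Its intensity was 164.0 in control cells at 0 h, 38.9 at 6 h and 40.4 at 12 h, and in Cnot3KO cells 294.5, 192.4 and 317.7. All 3 Cnot3KO arrays were above all 3 control arrays. The control values at 6 and 12 h lay below the array median and above the 20th percentile, which makes them dim. The difference was 0.84 (log2, 1.80-fold) before ActD, 2.31 (4.95-fold) at 6 h and 2.97 (7.86-fold) at 12 h. The half-life between 0 and 12 h was 5.94 h in control cells, where 23.7% was left at 6 h and the level then stayed (0.06 from 6 to 12 h), while Cnot3KO cells showed no net loss. Over the 3 times the genotype difference was 2.04 ± 0.39 (SE), 4.12-fold, with an unadjusted p of 0.00237 and an adjusted p of 0.0539 (limma), just above the threshold of 0.05. Papolg passed it with the mean of both probe sets, where the difference was 1.06 (adjusted p = 0.0355, limma), and without shared-sequence sets (adjusted p = 0.0497). It also passed with an intensity trend in the variance (adjusted p = 0.0286) and without the 0 h arrays. Over all genes, those settings called 1625 of 16219, 649 of 14866, 2063 of 16499 and 5809 of 16451, against 163 of 16499 as reported. Papolg did not pass under the 6 other alternatives run (adjusted p from 0.0558 to 0.368, limma). Its difference in change over 12 h was 2.13 ± 0.89 (unadjusted p = 0.0543, adjusted p = 0.287, limma). The only other Papolg probe set was below the array median on every array and read −0.21 for the same difference, so these values rest on 1 set.

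Cpeb2 and Cpeb4 bind the cytoplasmic polyadenylation element and recruit either the polyadenylation machinery or, as known for Cpeb4, deadenylases. Cpeb2 had intensities of 641.5, 112.9 and 66.3 in control cells and of 377.1, 234.4 and 235.7 in Cnot3KO cells. The genotypes crossed: the Cnot3KO array was lower at 0 h (−0.77, 1.70-fold) and higher at 6 h (1.05, 2.08-fold) and 12 h (1.83, 3.55-fold). At 12 h 10.3% of the control level and 62.5% of the Cnot3KO level was left, which gives half-lives of 3.67 h and 17.7 h. From 6 to 12 h the control level changed by a further −0.77 and the Cnot3KO level by 0.0078. The genotypes differed in change over 12 h by 2.60 ± 0.69 (SE, unadjusted p = 0.00942, adjusted p = 0.189, limma), the largest such difference of the 10. The 2 other Cpeb2 probe sets, neither above the array median on all arrays, read 1.87 and 1.11 for it. Averaged over the 3 times, with both signs in it, the genotype difference was 0.71 ± 0.47 (adjusted p = 0.330, limma).

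Cpeb4 crossed in the same way at a smaller size. Its intensity was 3113.5, 680.7 and 565.8 in control cells and 2167.9, 955.5 and 1002.0 in Cnot3KO cells, with differences of −0.52 at 0 h, 0.49 at 6 h and 0.82 at 12 h (1.44-fold lower, 1.40-fold higher and 1.77-fold higher). By 6 h the control level was 21.9% and the Cnot3KO level 44.1% of that at 0 h, and at 12 h they were 18.2% and 46.2%. Half-lives between 0 and 12 h were 4.88 h and 10.8 h. Loss over 12 h in both genotypes together was −1.79 ± 0.34 (SE), which passed the test (adjusted p = 0.0416, limma with Benjamini-Hochberg adjustment), so Cpeb4 fell after ActD. That call was lost without the 6 h arrays (adjusted p = 0.137, limma), a fit in which 0 of 16426 genes passed. Between genotypes the change differed by 1.35 ± 0.82 (adjusted p = 0.418). A second bright probe set read 1.57 for that difference, and the remaining set, dim on all arrays, read 0.30.

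Larp1 binds the 5′ cap and the terminal oligopyrimidine (TOP) motif of mRNAs for ribosomal proteins and translation factors, and Larp4 binds poly(A) and poly(A)-binding protein and keeps tails long. Larp1 had intensities of 1858.4, 743.8 and 367.9 in control cells and of 1473.7, 779.1 and 703.2 in Cnot3KO cells, so the Cnot3KO array was lower at 0 h (−0.33), alike at 6 h (0.07) and 1.91-fold higher at 12 h (0.93). The first 6 h took the level to 40.0% in control and 52.9% in Cnot3KO cells, and the genotypes then differed, with changes from 6 to 12 h of −1.02 and −0.15. Half-lives over 12 h were 5.14 h and 11.2 h. Larp1 fell after ActD in the joint test of both genotypes, by 1.70 ± 0.32 on the log2 scale (SE, adjusted p = 0.0414, limma). The call of Larp1 was likewise lost without the 6 h arrays (adjusted p = 0.140, limma), where no gene passed. Between genotypes its change differed by 1.27 ± 0.39 (unadjusted p = 0.0180, adjusted p = 0.216, limma), and Larp1 had no second probe set to set beside it.

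On its chosen set Larp4 was alike in both genotypes at 0 h and unlike after ActD. Control cells read 1033.9, 541.3 and 435.7 and Cnot3KO cells 1140.3, 935.1 and 943.0, so only the control array at 0 h reached into the Cnot3KO range. The differences were 0.14 at 0 h, 0.79 (1.73-fold) at 6 h and 1.11 (2.16-fold) at 12 h. With 42.1% and 82.7% left at 12 h, the half-lives were 9.63 h in control and 43.8 h in Cnot3KO cells. The genotype difference over the 3 times was 0.68 ± 0.22 (SE, 1.60-fold, unadjusted p = 0.0209, adjusted p = 0.0947, limma) and the difference in change 0.97 ± 0.36 (unadjusted p = 0.0356, adjusted p = 0.253). Larp4 passed the test of genotype with the mean of its 3 probe sets (1.29, adjusted p = 0.0444, limma) and without the 0 h arrays. Over all genes, those settings called 1625 of 16219 and 5809 of 16451, against 163 of 16499 as reported. Larp4 did not pass under the 8 other alternatives run (adjusted p from 0.0929 to 0.439, limma). Both other Larp4 probe sets were above the array median throughout and had the same sign at every time. One read 0.49, 2.33 and 3.13 and the other 0.56, 1.52 and 1.56, so both were already higher in Cnot3KO cells at 0 h.

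Elavl1 (HuR) and Khsrp, the AU-rich element binders, differed little between genotypes. Elavl1 read 2040.0, 2290.2 and 1666.7 in control cells and 2033.2, 2119.9 and 1568.7 in Cnot3KO cells. Khsrp read 826.7, 785.8 and 737.0 in control cells and 805.3, 779.3 and 687.3 in Cnot3KO cells. The genotypes overlapped for both genes, at 12 h 77.2% to 89.2% of the starting level was left in every case, and the differences over the 3 times were −0.07 ± 0.14 for Elavl1 (SE, 95% interval −0.41 to 0.27, adjusted p = 0.733, limma) and −0.05 ± 0.14 for Khsrp (95% interval −0.39 to 0.29, adjusted p = 0.804). The intervals describe how the difference on the chosen sets held over the 3 times, and they do not bound it over embryos, cultures or probe sets. A second bright Elavl1 set read −0.24 for the difference in change over 12 h against −0.08 for the chosen one, and the 2 other Khsrp sets read 0.16 and 0.03 against −0.06.

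**Figure D2:**
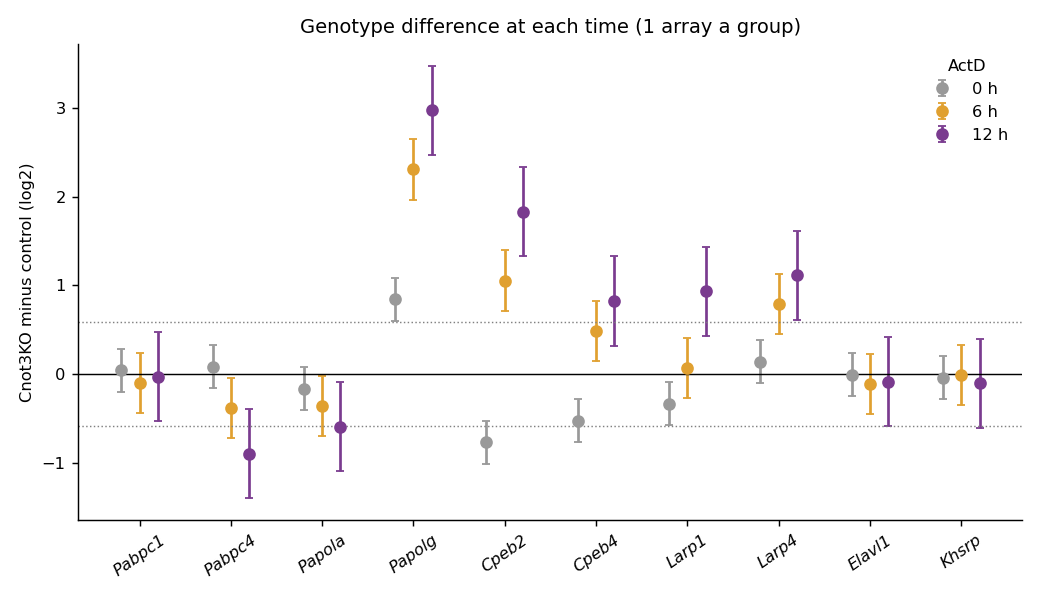
Difference between genotypes in log2 intensity (Cnot3KO minus control) for each mRNA at 0, 6 and 12 h of ActD, from 1 array a group. Bars are the SD between probe sets of the same gene at that time (0.24, 0.34 and 0.50), not a replicate error, and dotted lines mark 1.5-fold. Papolg reaches 2.97 at 12 h, Cpeb2 goes from −0.77 to 1.83, and Pabpc4 goes from 0.09 to −0.90.

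Counted at each time against all genes that passed the filter on dim values, the 10 mRNAs stood as follows. At 0 h, Papolg alone was over 1.5-fold higher in Cnot3KO cells, against 6.87% of 16110 genes, and Cpeb2 alone over 1.5-fold lower, against 2.99%. At 6 h, 3 were higher (Papolg, Cpeb2 and Larp4) against 18.1% of 16230 genes, and none was lower against 7.25%. At 12 h, 5 were higher against 27.7% of 16329 genes, and 2 (Pabpc4 and, at 1.51-fold, Papola) lower against 13.9%. Papola is counted there by its chosen set, and with the mean of its sets (−0.38) or with its other bright set (0.77) Pabpc4 alone was lower. The median difference of the 10 was −0.02, 0.03 and 0.40 at the 3 times, beside 0.03, −0.05 and −0.03 over all 16499 genes tested. With 10 genes and 27.7% of all genes higher at 12 h, the count of 5 is a description of these members and not a test of them.

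In the limma model with genotype and time, 0 of the 10 passed the adjusted test of genotype, where 0.988% of 16499 genes did. At an unadjusted p under 0.05, 2 (Papolg and Larp4) did, against 33.4% of all genes. Without the 0 h arrays, where Cpeb2, Cpeb4, Larp1 and Pabpc4 had the opposite sign to 12 h, 5809 of 16451 genes passed, 4002 as higher and 1807 as lower. Of the members, 4 then passed as higher (Papolg, Cpeb2, Cpeb4 and Larp4) and Pabpc4 passed as lower. For Cpeb2, Cpeb4 and Pabpc4 that fit leaves out the arrays of opposite sign, so it is no separate support for a genotype difference. In the fit as reported, the lowest adjusted p of genotype for any gene was 0.0499 (limma), and with no filter on dim values no gene passed. For 12 h against 0 h in both genotypes, Cpeb4 and Larp1 passed as lower, against 4.53% of genes, and none passed as higher, against 2.24%. At an unadjusted p under 0.05 Cpeb2, Cpeb4, Larp1 and Larp4 passed that comparison, against 29.8%. Cpeb2 had −1.98 ± 0.58 (SE, adjusted p = 0.0956, limma) and Papolg −0.96 ± 0.48 (adjusted p = 0.235), which for both averages a fast loss in control cells with a slow or absent one in Cnot3KO cells. The fits on all arrays have 2 residual degrees of freedom, and the fit without the 0 h arrays has fewer. With 1 array a group, these p-values measure how well the difference holds over times and not over embryos.

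For the difference in change over 12 h between genotypes, limma called 0 of the 10, as it called 0% of all 16499 genes. At an unadjusted p under 0.05, Cpeb2, Larp1 and Larp4 passed with less loss in Cnot3KO cells, against 12.8% of genes, and Pabpc4 passed in the other direction, against 4.95%. The median difference in change of the 10 was 0.45, beside −0.04 over all genes. The median change over 12 h of the 10 was −0.77 in control and −0.34 in Cnot3KO cells, beside 0.15 and 0.08 over all genes.

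The half-life of a gene was counted as longer in Cnot3KO cells if its control value did not exceed 12 h and its control decay rate was over 2 times the Cnot3KO rate. This held for Papolg, Cpeb2, Cpeb4, Larp1 and Larp4, 5 of the 10, against 11.4% of genes, and the reverse held for none, against 0.673%. The ratio of half-lives was 4.83 for Cpeb2, 4.55 for Larp4, 2.21 for Cpeb4 and 2.19 for Larp1, and has no value for Papolg, which showed no net loss in Cnot3KO cells. Cpeb4 and Larp1 were thus close to the limit of 2. When the half-life was taken from the 0 and 6 h arrays alone, the count was 3 (Papolg, Cpeb2 and Larp4) against 11.3% of genes, and from the 6 and 12 h arrays alone it was 2 (Cpeb2 and Larp1) against 11.5%, so only Cpeb2 was counted each time.

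**Figure D3:**
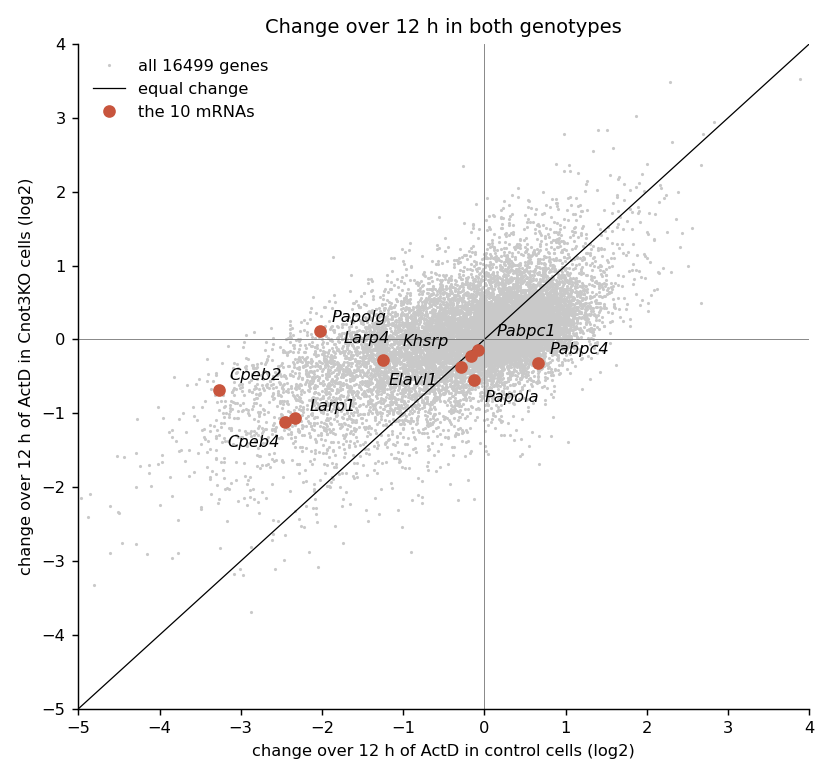
Change in log2 intensity over 12 h of ActD in control cells (horizontal) and Cnot3KO cells (vertical) for all 16499 genes tested (grey) and the 10 mRNAs (red), with the line of equal change; 2 genes fall outside the axes. Papolg, Cpeb2, Cpeb4, Larp1 and Larp4 lie to the left of and above the line, and Pabpc4 and Papola below it.

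The other probe sets describe how far each value rests on 1 set. The difference in change over 12 h kept its sign in every other set of Pabpc4, Cpeb2, Cpeb4 and Larp4, and Larp1 had a single set. Between sets of a gene this difference had an SD of 0.42 over 4117 genes. Sets of opposite sign were found for Pabpc1 (0.69 against −0.07), for Papola (0.44 in 1 of 4 other sets), for Papolg (the dim set), for dim sets of Elavl1 and for Khsrp, and of these genes Khsrp alone had its sets within 0.42 of the chosen one.

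**Figure D4:**
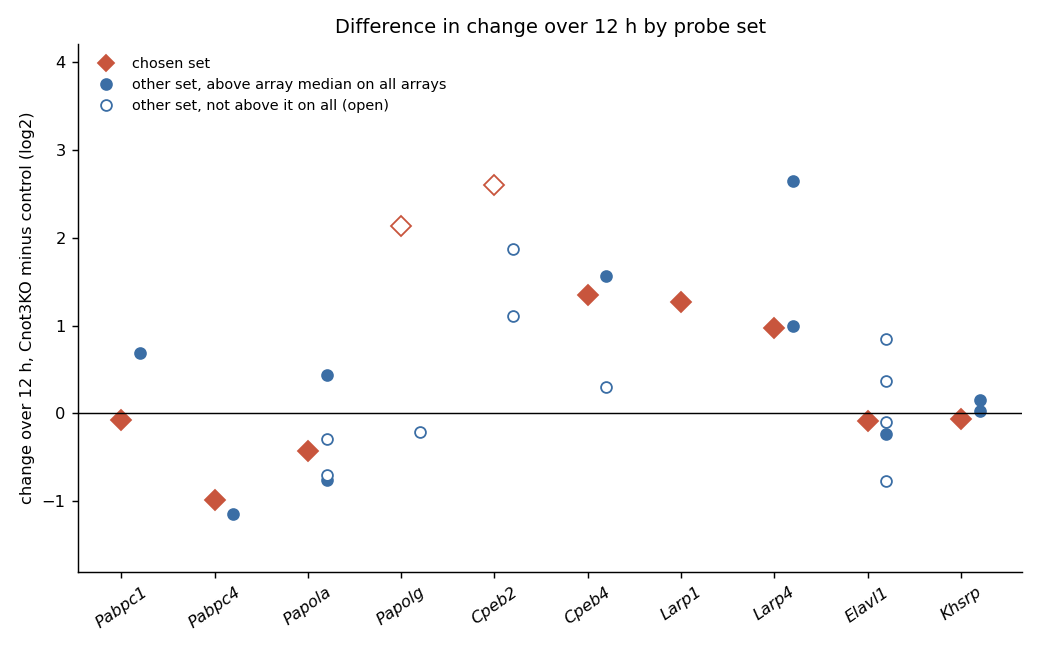
Difference in change over 12 h of ActD (log2, Cnot3KO minus control) for every probe set of the 10 genes, with the chosen set as a diamond, the others as circles, and open symbols where a set was not above the array median on all 6 arrays. Pabpc4 lies below 0 and Cpeb2, Cpeb4, Larp1 and Larp4 above it in all their sets, and the sets of Papola and Papolg fall on both sides.

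The pattern over the 6 arrays was also set beside that of every gene above the array median throughout (10517 genes, Pearson r of log2 intensity, a description over 6 arrays that share their normalisation). The nearest gene was Ptpn2 for Larp4 (r = 0.99989), Ankib1 for Larp1 and Ipo11 for Elavl1 (0.999 each), Sema4b for Papolg and Peak1 for Cpeb4 (0.998 each), Sik1 for Cpeb2 (0.996), Slc16a10 for Papola (0.995), Cask for Pabpc1 and Pepd for Pabpc4 (0.993 each) and Tex2 for Khsrp (0.986). Among Papolg, Cpeb2, Cpeb4, Larp1 and Larp4 the 10 pairs had r between 0.571 and 0.952. These genes were set together by their values on the same arrays, so this range is no test of a shared pattern.

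The wider poly(A) machinery was described through 6 lists of other genes, 95 of them tested. Over these, 1 gene (Fxr1) passed the adjusted test of genotype, higher, and none passed that of the difference in change (limma). At an unadjusted p under 0.05, 19 had less and 5 more loss in Cnot3KO cells (12.8% and 4.95% of all genes). A longer half-life in Cnot3KO cells was found for 18 (11.4% of all genes). The reverse held for 1 of the poly(A) binders and partners and 2 of the other RNA-binding proteins (0.673% of all genes). The other poly(A) and terminal nucleotidyl transferases are enzymes that add A or U to RNA 3′ ends. None of their 11 tested genes passed the adjusted test and 9 were higher at an unadjusted p under 0.05, where 33.4% of all genes passed in either direction, with a median genotype difference over the 3 times of 0.97, median changes over 12 h of −1.40 (control) and −0.18 (Cnot3KO), and a longer half-life for 6 (11.4% of all genes). Tut4, a uridyl transferase that marks short-tailed mRNAs, had 1.63 ± 0.37 (SE, adjusted p = 0.0597, limma), with 12 h minus 0 h values of −2.76 in control and −0.74 in Cnot3KO cells. Mtpap, the mitochondrial poly(A) polymerase, had 1.37 ± 0.41 (adjusted p = 0.0875, limma), and Tent4a, a non-canonical poly(A) polymerase, 1.09 ± 0.36 (adjusted p = 0.0998). The 1 other Tent4a set above the array median read 0.13 for genotype. Tent4a fell over 12 h of ActD in the joint test of both genotypes (−2.17, adjusted p = 0.0474, limma).

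The 17 genes for 3′ end cleavage and polyadenylation, the complex in which Papola and Papolg act, had a median of 0.71 over the 3 times, 0 past the adjusted test, 11 up and 1 down in Cnot3KO cells by the unadjusted p (33.4% of all genes in either direction), and 5 with a longer half-life (11.4% of all genes). Fip1l1, which tethers poly(A) polymerase to the complex, had 2.03 ± 0.37 (SE, adjusted p = 0.0526, limma), with 12 h minus 0 h values of −2.28 in control and −0.39 in Cnot3KO cells, but its only other set above the array median read −0.66 for genotype. Cstf1 and Cstf3, subunits of the cleavage stimulation factor, had 1.81 ± 0.33 (adjusted p = 0.0526) and 1.18 ± 0.39 (adjusted p = 0.102). Other poly(A) binders and their partners had a median near 0 (0.05, 11 tested, 0 past the adjusted test, 1 higher and 1 lower unadjusted, against 33.4% of all genes). Within that list the translation termination factor Gspt2 had 1.51 ± 0.30 (adjusted p = 0.0541, limma). The initiation factor Eif4g3 had −0.94 ± 0.29 (adjusted p = 0.0927), but its 1 other set above the array median read −0.03 for genotype. Paip1, a Pabpc1 partner, had 0.53 ± 0.30 (adjusted p = 0.263) with changes of −1.70 (control) and −0.12 (Cnot3KO). Its 2 other sets above the array median read −0.32 and −0.03 for genotype.

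The list of relatives of the CPEB, LARP and ELAV members was counted in the same way. Of 10 tested, 0 passed the adjusted test of genotype, 2 were higher unadjusted (33.4% of all genes in either direction), none had a longer half-life by the rule above, and the median difference in change was −0.36. Larp4b, the nearest relative of Larp4, read −2.30 in control and −1.25 in Cnot3KO cells for 12 h minus 0 h, with 0.40 ± 0.24 for genotype (SE, adjusted p = 0.281, limma). Ssb, the La protein itself, had 0.51 ± 0.16 (adjusted p = 0.0917, limma). For genotype, the 1 other Larp4b set above the array median read 0.62, and the 3 other Ssb sets from −0.22 to 0.50. Cpeb3, a close relative of Cpeb2 and Cpeb4, and Larp4b fell over 12 h of ActD in the joint test of both genotypes (−1.99, adjusted p = 0.0153, and −1.77, adjusted p = 0.0336, limma). Cpeb1 had 0.92 ± 0.16 (adjusted p = 0.0526) at intensities of 16.8 to 42.3 on all arrays, which are dim.

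Other RNA-binding proteins of AU-rich, C-rich and coding elements had a median of 0.23 over 28 tested genes, of which 10 were up and 3 down in Cnot3KO cells by the unadjusted p (33.4% of all genes in either direction). Fxr1, an AU-rich element binder of the fragile X family, had 1734.6, 1877.8 and 1154.5 in control and 3473.5, 4014.0 and 3329.0 in Cnot3KO cells on its chosen set. The difference was 1.21 ± 0.17 (SE, 2.31-fold, adjusted p = 0.0499, limma, a call lost with no filter). Its 2 other sets above the array median were also higher in Cnot3KO cells, by 0.14 and 0.87. Hnrnpdl, a heterogeneous nuclear ribonucleoprotein, had 1.13 ± 0.24 (adjusted p = 0.0549, limma), and its 5 other sets above the array median read from 0.04 to 1.115. Msi2, a Musashi protein, had −1.57 ± 0.37 (adjusted p = 0.0623, limma), with changes over 12 h of −0.13 in control and −2.16 in Cnot3KO cells. The 2 other Msi2 sets above the array median read only −0.30 and −0.24 for genotype. Igf2bp3, which binds and protects coding and AU-rich stretches, and Qk, the quaking protein, fell over 12 h of ActD in both genotypes together (−1.04, adjusted p = 0.0353, and −0.96, adjusted p = 0.0358, limma). The TOP mRNAs that Larp1 binds, ribosomal proteins left aside, had a median of −0.0076 over the 3 times and of −0.09 for the difference in change (18 tested, 0 past the adjusted test, 4 higher and 0 lower unadjusted, against 33.4% of all genes). Eif4b had 0.94 ± 0.19 (adjusted p = 0.0549, limma), Eif4a2 0.87 ± 0.14 (adjusted p = 0.0526) and Eif3e 0.57 ± 0.17 (adjusted p = 0.0890). For genotype, the 2 other Eif4b sets above the array median read 0.44 and 0.79, and those of Eif3e 0.38 and 0.50.

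**Figure D5:**
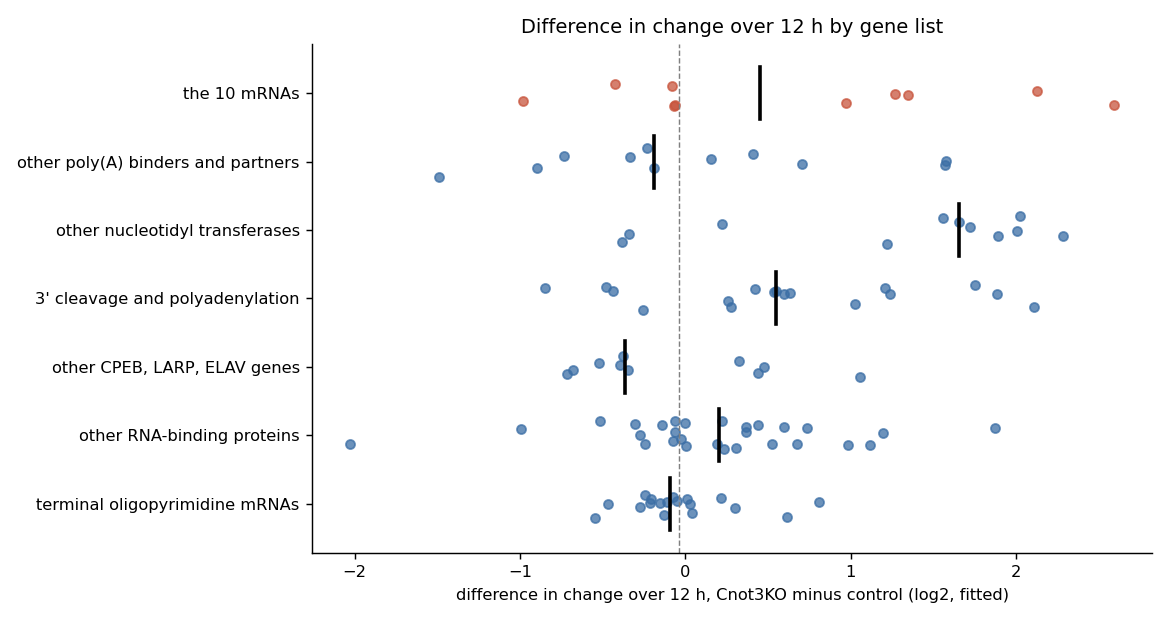
Fitted difference in change over 12 h of ActD (log2, Cnot3KO minus control) for the 10 mRNAs (red) and the tested genes of the 6 other lists (blue), 1 point a gene, with the median of each list as a black bar and that of all genes (−0.04) as a dashed line. The median of the nucleotidyl transferases is 1.66, that of the 10 mRNAs 0.45 and that of the other CPEB, LARP and ELAV genes −0.36.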

How the data were processed

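The authors hybridised biotin-labelled cRNA to 3′-biased arrays and summarised each probe set by the Robust Multi-array Average, in software that the methods do not name for that step (GeneSpring is named for comparisons). The authors deposited linear intensities, with 0 missing values, and log2 was taken here. Names came from the annotation of the platform, with 34945 naming 1 gene, 932 several and 9160 none, and 99.4% of identifiers were matched to RefSeq symbols. Several-gene sets were not used. A gene was tested if it exceeded the 20th percentile of at least 1 array. Tests were limma 3.58.1 in R 4.3.3 (lmFit, eBayes): genotype and time as terms, or genotype by hours times 12 h, with prior degrees of freedom of 3.74 and Benjamini-Hochberg adjustment over 16499 genes at 0.05. A half-life is 12 h divided by the log2 loss. Scripts were tested on simulated data. Groups came from the labels. The 10 members are all named, as are up to 3 genes a list with the largest genotype difference, those pathway genes that passed an adjusted test, and the nearest gene by correlation, while single markers were named after their values were seen. Members and lists were chosen with earlier results of these data known. Alternatives were another summary of probe sets, filter, pseudocount, centring, variance model and array sets.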

Additional observations from a re-analysis of the deposited data

Results flagged for a closer look

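Cpeb2, Cpeb4 and Larp1 changed sign between times in the comparison of genotypes. For Cpeb2 the Cnot3KO array differed from the control array by −0.77 (log2) at 0 h and by 1.83 at 12 h. For Cpeb4 the differences were −0.52 and 0.82, and for Larp1 −0.33 and 0.93. With 1 array a group at each time the difference between 0 and 12 h was not tested by these values alone, and the fitted difference in change did not pass the adjusted test for any of these 3 genes.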

How the results depend on the processing

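Under the alternatives, 14 recomputed counts of members moved by over 1.5 times. With the mean of all probe sets of a gene, 0 members were over 1.5-fold higher and 0 lower at 0 h, and 1 was lower at 12 h. With that mean 2 passed the adjusted limma test of genotype as higher (Papolg, adjusted p = 0.0355, and Larp4, adjusted p = 0.0444), against 1625 of 16219 genes. The count lower at 12 h was also 1 without probe sets that share sequence, which leaves 9 members since both Pabpc4 sets are of that kind (the median of the members at 12 h was then 0.82 against 0.40), with arrays centred on 46 ribosomal protein genes, and with a pseudocount of 16. Papolg alone passed (1 member) without shared-sequence sets (limma, adjusted p = 0.0497, 649 of 14866 genes called) and with an intensity trend in the variance (adjusted p = 0.0286, 2063 of 16499 called). Without the 0 h arrays 4 members passed as higher (Papolg, Cpeb2, Cpeb4 and Larp4) and 1 as lower (Pabpc4). That fit called 5809 of 16451 genes, against 163 of 16499 with all arrays. With no filter, the 50th percentile filter, ribosomal centring, no time term, or without the 6 h or the 12 h arrays no gene was called, beside 2187 to 5761 at an unadjusted p under 0.05. Without the 6 h arrays 0 of 16426 genes passed the test of loss after ActD (limma, lowest adjusted p = 0.0949), and so 0 members. Cpeb4 then had an adjusted p of 0.137 and Larp1 of 0.140. At an unadjusted p under 0.05, 3 members passed that test, beside 2875 of all genes. The half-life count was 3 from the 0 and 6 h arrays and 2 from the 6 and 12 h arrays, alternatives chosen after seeing the data, and with the mean of probe sets it was 4, without Papolg, against 7.44% of genes. Signs turned for these values: the genotype difference of Pabpc1 was 0.013 with the mean of probe sets, 0.054 without shared-sequence sets and 0.0084 without the 6 h arrays, and without the 12 h arrays that of Cpeb4 was −0.016 and that of Larp1 −0.13. The difference in change turned to 0.31 and 0.69 for Pabpc1 under the first and second of these, to 0.0064 for Elavl1 with the mean of probe sets, and for Khsrp to 0.042, 0.033 and, with ribosomal centring, 0.0044. The cause of these moves was not tested. Centring on ribosomal protein genes moved the median change of all genes over 12 h from 0.12 to −0.0097. No gene passed the adjusted test of the difference in change in any fit, beside 2924 at an unadjusted p under 0.05. No paired analysis was possible because the labels give no replicate numbers and each group is 1 array. Dim values, as for Papolg in control cells after ActD, limit how large a fold can be read.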
